A study of Mus musculus with 12 samples.

Results

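The heat shock proteins and molecular chaperones of mouse muscle stem cells were described here as 79 protein-coding genes of 10 families, among 25093 genes in the count table, of which 16583 were protein-coding. They were chosen by gene symbol alone: the HSP70, HSP110, HSP90, HSP60, HSP10 and small HSP genes, the J-domain families DNAJA, DNAJB and DNAJC, the subunits of the CCT chaperonin with numbered symbols, and the BAG co-chaperones. A further 8 protein-coding genes with such symbols in GENCODE vM21 (Cct8l1, Dnajb7, Dnajb8, Dnajb13, Dnajc5b, Dnajc5g, Dnajc22 and Hspb9) had no row in the table. Of the 79 genes, 74 had a mean of at least 1 CPM (the count scaled to a common library size, after TMM normalization) in freshly isolated cells, and 72 had at least 5 CPM. The 5 genes under 1 CPM were Hspb3, Hspb7, Dnajc6, Cct6b and Dnajb3.

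The study asked what the transcription factor GLI3 does in satellite cells, the stem cells of skeletal muscle. Quiescent satellite cells (QSCs) were sorted from uninjured hindlimb muscle, and activated satellite cells (ASCs) from muscle 3 days after cardiotoxin injury. Gli3+/+ mice carried 1 Pax7-CreER allele, 2 wild-type copies of Gli3 and a YFP reporter at the Rosa locus. Gli3 Δ/Δ mice carried the same Pax7-CreER and reporter alleles with both copies of Gli3 floxed at exon 8, and mice of both genotypes received tamoxifen. Deletion was therefore limited to cells that express Pax7, and the controls also carried the Pax7-CreER allele and received the drug. The sort used surface markers (α7-integrin and CD34 for QSCs, VCAM1 in place of CD34 for ASCs, without CD31, CD45, SCA1 or CD11b) and not the reporter. A QSC library was made from a pool of mice and an ASC library from a single animal, with 3 libraries per state and genotype.

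Molecular chaperones bind unfolded or partly folded proteins and help them to reach or regain their native form. HSP70 proteins hold exposed stretches of a client in a cycle driven by ATP; J-domain proteins deliver clients and start the hydrolysis, while HSP110 and BAG proteins release the nucleotide. HSP90 acts later on kinases and receptors, the ring-shaped CCT complex folds actin and tubulin, HSP60 with HSP10 works in mitochondria, and small HSPs keep damaged proteins from aggregating. Some of these genes are made at all times. Others are induced by the transcription factor HSF1 on heat or other protein damage, or by the unfolded protein response of the endoplasmic reticulum (ER). Dissociation of muscle into single cells is known to induce immediate-early and heat shock genes in satellite cells.

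The 6 QSC libraries held 39556784 to 65750131 estimated counts, and library 1 of Gli3+/+ was the smallest. The 8 satellite cell markers summed to 3759 to 6227 CPM in each library, Pax7 itself to 798 to 1157 CPM, and the 6 macrophage markers to 10.03 to 26.1 CPM. Gli3 was at 11.2, 9.71 and 9.75 CPM in Gli3+/+ and at 9.54, 10.5 and 6.26 CPM in Gli3 Δ/Δ (log2 fold change −0.22 ± 0.22 SE, adjusted p = 0.916 by edgeR's quasi-likelihood test), but a count over the whole gene does not check the loss of a single exon. Over all genes, edgeR called 88 between the genotypes, 47 higher and 41 lower in Gli3 Δ/Δ. The sources used here do not map the count columns of the ASC libraries to samples, so ASC libraries entered no test.

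Members were grouped by what is known of their induction and place in the cell. The lists held 10 stress-induced cytosolic genes, 6 genes induced by ER stress, 13 constitutive cytosolic genes, 7 mitochondrial genes, 8 CCT subunits and 4 small HSPs of striated muscle, and 31 members were in no list. Sequences of 250 bases before the transcription start were taken from RefSeq on GRCm38.p6, where 65 of the 79 members had an entry. The heat shock element, bound by HSF1, was searched as 2 neighbouring inverted units (GAANNTTC or TTCNNGAA, which read the same on both strands). It was present in 6 of 9 stress-induced genes with an entry, in 2 of 11 constitutive, 2 of 7 CCT, 2 of 5 mitochondrial, 1 of 6 ER and 2 of 3 striated muscle small HSP genes, in 16 of the 65 members, and in 14.5% of the 27025 genes of the RefSeq promoter set. Bag3, Dnajb1 and Hspb8 were the stress-induced genes with an entry and no match. The first 3 sequences are shown because Hspa1a and Hspa1b carry most of the stress-induced RNA in QSCs and Hspb1 has a pair of elements. Hspa1a and Hspa1b are neighbouring copies of the inducible HSP70 gene, and Hspb1 encodes the small HSP known as HSP25 in mice. Capitals mark the heat shock elements, which start 104 bases before the start site of Hspa1a and Hspa1b and 117 and 97 bases before that of Hspb1. The windows are chr17:34972157-34972406, chr17:34959239-34959488 (both on the minus strand) and chr5:135887669-135887918 (plus strand).
Hspa1a: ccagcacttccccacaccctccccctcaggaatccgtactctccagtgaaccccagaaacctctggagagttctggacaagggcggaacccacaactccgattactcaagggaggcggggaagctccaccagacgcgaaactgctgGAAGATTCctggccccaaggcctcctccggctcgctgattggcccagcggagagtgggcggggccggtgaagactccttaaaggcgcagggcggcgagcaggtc
Hspa1b: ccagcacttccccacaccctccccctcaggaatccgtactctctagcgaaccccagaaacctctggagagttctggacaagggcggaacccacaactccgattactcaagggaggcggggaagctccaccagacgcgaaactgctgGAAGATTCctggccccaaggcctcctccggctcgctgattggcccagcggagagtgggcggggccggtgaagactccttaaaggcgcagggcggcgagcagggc
Hspb1: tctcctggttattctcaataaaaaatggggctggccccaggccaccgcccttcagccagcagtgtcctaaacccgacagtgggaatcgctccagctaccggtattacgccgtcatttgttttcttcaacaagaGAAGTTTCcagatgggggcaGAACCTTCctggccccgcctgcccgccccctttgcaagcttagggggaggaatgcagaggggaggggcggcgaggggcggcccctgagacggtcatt

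The windows of Hspa1a and Hspa1b were identical at 247 of 250 positions. The ER stress response element (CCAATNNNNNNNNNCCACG on either strand) was present in 3 of 6 ER genes, Hspa5, Hsp90b1 and Dnajc3, and in 0.13% of the genes of the promoter set. Shorter sites are shown so that this element can be compared with heat shock elements, with the matched letters in capitals. The sites lie at chr2:34772020-34772048 (plus strand) for Hspa5, chr14:118937822-118937850 (plus) for Dnajc3, chr5:149636351-149636380 (minus) for the stress-induced Hsph1 and chr1:55088053-55088082 (minus) for the mitochondrial Hspd1. In Hspd1 overlapping pairs form a run of 3 or more units, a form found in 0.514% of the genes of that set and, among members, in Hspd1, its divergent neighbour Hspe1 and Dnajb6. Such a run was in no stress-induced gene with an entry. A match of letters is a description of the DNA and was not tested for binding.
Hspa5: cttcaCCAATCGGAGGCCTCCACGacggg
Dnajc3: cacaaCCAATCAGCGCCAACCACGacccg
Hsph1: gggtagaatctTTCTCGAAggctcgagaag
Hspd1: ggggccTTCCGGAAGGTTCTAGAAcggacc

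Inducible HSP70 was among the most abundant mRNAs of the sorted QSCs. By mean CPM, Hspa1b ranked 4 and Hspa1a ranked 7 of all genes in the table. Hspa1b (ENSMUSG00000090877.3, chr17:34956436-34959238 on GRCm38) was at 13530, 7547 and 5535 CPM in Gli3+/+ libraries 1, 2 and 3 and at 5790, 7850 and 10490 CPM in Gli3 Δ/Δ. Hspa1a (ENSMUSG00000091971.3, chr17:34969190-34972156) was at 8728, 4773 and 3507 CPM and at 4058, 5343 and 7598 CPM, with the 6 libraries in the same order as for Hspa1b. The highest and lowest libraries of both genes were Gli3+/+ libraries, and the genotypes overlapped. Together these 2 genes took 2.27, 1.27 and 0.829% of the counts of the Gli3+/+ libraries and 0.994, 1.34 and 1.82% of those of Gli3 Δ/Δ. Of the runs of 75 bases in their transcripts, 54.2% for Hspa1a and 55.8% for Hspa1b also occur in the other copy, so the division of reads between them is uncertain and their sum is the firmer value.

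The other stress-induced genes were counted at lower levels (plot of stress-induced genes by library). Dnajb1, the J-domain partner of inducible HSP70, was at 1201, 401 and 330 CPM in Gli3+/+ and at 512, 613 and 486 CPM in Gli3 Δ/Δ. Hspb1 was at 679, 273 and 265 CPM and at 327, 225 and 336 CPM. Hsph1, an HSP110 that exchanges the nucleotide of HSP70, was at 1081, 387 and 659 CPM and at 880, 557 and 484 CPM. Library 1 of Gli3+/+ was the highest for all 3 genes, 3.64 times the lowest library for Dnajb1, 3.02 times for Hspb1 and 2.80 times for Hsph1. Dnaja1, a J-domain protein of the cytosol, was at 477, 199 and 330 CPM and at 456, 180 and 220 CPM. Hsp90aa1, the inducible HSP90, was at 830, 445 and 1075 CPM and at 924, 495 and 581 CPM. Bag3, which links HSP70 to small HSPs and autophagy, was at 226, 110 and 177 CPM and at 191, 121 and 122 CPM. These 3 genes and Hsph1 shared a second pattern: Gli3+/+ 1 and 3 and Gli3 Δ/Δ 1 were the 3 highest libraries. Dnajb4 varied least of the list, from 84.0 to 124 CPM, and Hspb8, a small HSP that acts with Bag3, was the lowest, from 3.41 to 8.87 CPM. Runs of 75 bases shared with pseudogenes made up 46.4% of the Hspb1 transcripts and 42.8% of those of Hsp90aa1, and the estimated counts of these genes carry that uncertainty.

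**Figure D1:**
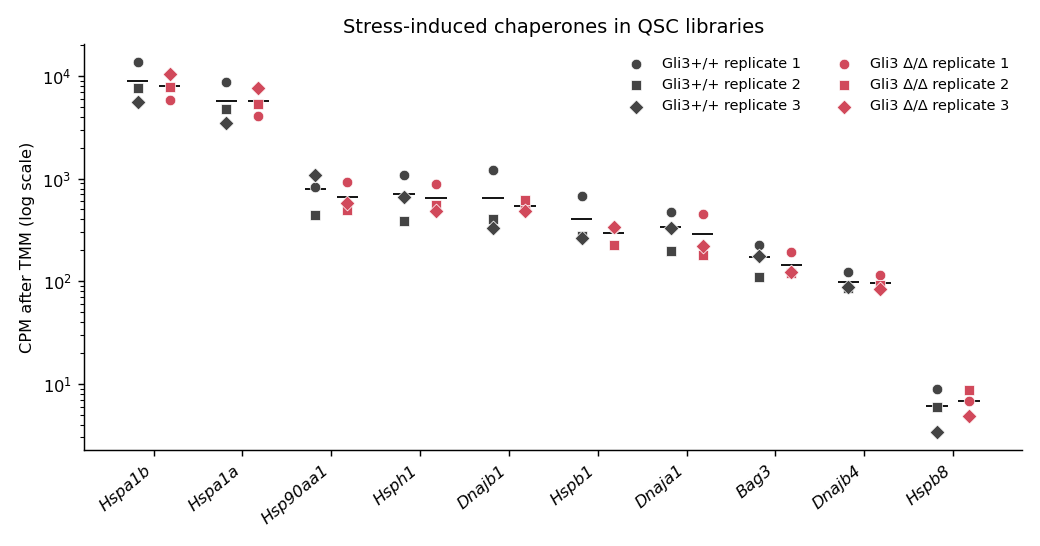
CPM after TMM (log scale) of the 10 stress-induced cytosolic genes in each QSC library. Grey symbols are Gli3+/+ and red symbols Gli3 Δ/Δ, the shape gives the replicate, and black bars are group means. The grey circle, Gli3+/+ 1, is the highest point for 9 of 10 genes, and the genotypes overlap for all 10.

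Library 1 of Gli3+/+ was the highest of the 6 for 9 of the 10 stress-induced genes, all but Hsp90aa1, whereas it was the highest for 11.0% of all genes with at least 5 CPM. The summed level of the list was 26880, 14230 and 11970 CPM in Gli3+/+ and 13260, 15480 and 20410 CPM in Gli3 Δ/Δ. Gli3+/+ 1 was highest and Gli3 Δ/Δ 3 next, and the range of Gli3 Δ/Δ lay within that of Gli3+/+. Without Hspa1a and Hspa1b the other 8 genes summed to 4626, 1906 and 2926 CPM and to 3410, 2291 and 2319 CPM, where Gli3 Δ/Δ 1 took second place. Gli3+/+ 1 also held the fewest counts, the highest sum of the 18 immediate-early genes (46860 CPM, against 35160 to 42730 CPM in the other 5 libraries) and the highest sum of macrophage markers (26.1 against 10.03 to 16.5 CPM). Gli3 Δ/Δ 3, next highest for the stress-induced sum, had the lowest immediate-early sum (35160 CPM) and the lowest macrophage sum (10.03 CPM). The part of these differences in the stress-induced levels was not tested. Hsf1, the gene of the inducing factor itself, was at 88.5 to 123 CPM and was highest in Gli3+/+ 3, not in Gli3+/+ 1.

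The ER genes differed from most stress-induced genes in their highest library, but the 2 lists shared part of their order. Hsp90b1, Dnajb9 and Dnajc3 had Gli3+/+ 1 and 3 and Gli3 Δ/Δ 1 as their highest libraries, as did Hsph1, Dnaja1, Hsp90aa1 and Bag3. Hsph1, Hsp90aa1 and Bag3 were also lowest in Gli3+/+ 2, and Hsp90aa1 was highest in Gli3+/+ 3 and then Gli3 Δ/Δ 1. Of all genes with at least 5 CPM, 31.3% were highest in Gli3+/+ 3, 8.55% highest in Gli3 Δ/Δ 1 and 21.0% lowest in Gli3+/+ 2. Hspa5 (BiP, the HSP70 of the ER lumen) was at 1838, 722 and 2814 CPM in Gli3+/+ and at 2402, 1884 and 987 CPM in Gli3 Δ/Δ, a span of 3.90 times. Hsp90b1, the HSP90 of the ER, was at 488, 382 and 706 CPM and at 710, 412 and 470 CPM. Dnajb11, a J-domain partner of BiP, was at 49.4, 33.1 and 76.7 CPM and at 61.9, 47.2 and 51.3 CPM. Each was lowest in Gli3+/+ 2 and highest in Gli3+/+ 3 or Gli3 Δ/Δ 1, the latter pair being also the 2 highest libraries for Dnajb9 (75.1 and 80.5 CPM, against 41.1 to 60.3 CPM). Dnajc3, which also restrains the ER kinase PERK, reached its highest level of 164 CPM in Gli3 Δ/Δ 1 and ranged from 118 CPM. Dnajc10, a disulphide reductase of the ER, had the narrowest range of the list (78.5 to 93.7 CPM). It was highest in Gli3 Δ/Δ 2 and lowest in Gli3 Δ/Δ 1. No ER gene was highest in Gli3+/+ 1. The sum of the list was 2673, 1390 and 3908 CPM in Gli3+/+ and 3497, 2596 and 1769 CPM in Gli3 Δ/Δ, so that the Gli3 Δ/Δ range again lay within the Gli3+/+ range.

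Among constitutive cytosolic chaperones, Hsp90ab1 and Hspa8 stood far above the rest. Hsp90ab1, the constitutive HSP90, was at 2518, 2200 and 3392 CPM in Gli3+/+ and at 2966, 1945 and 2474 CPM in Gli3 Δ/Δ. Hspa8, the constitutive HSP70 that also uncoats clathrin vesicles, was at 2209, 1490 and 2204 CPM and at 4235, 2200 and 2670 CPM. Levels per kilobase used all annotated exons of a gene merged. This length can exceed that of the transcript made and so lower the value, and genes compare only roughly. On this scale Hspa1b was at 3017 CPM, Hspa1a at 1910, Hsp90ab1 at 861, Hspa8 at 582, Hspa5 at 420 and Hspb1 at 340. Inducible HSP70 thus exceeded constitutive HSP70 on this scale in the mean of the QSC libraries. The highest members of the other families were Dnajb1 at 184, Cct2 at 110, Hspd1 at 106, Hsph1 at 92.9, Bag3 at 61.6, Dnaja1 at 36.0 and Dnajc3 at 27.2 CPM per kilobase. The other 11 constitutive genes ranged in mean from Dnaja4 to Bag6 and included Hspa4 and Hspa4l, both of the HSP110 family. Dnaja4 shared 2 traits with most of the stress-induced list. It was highest in Gli3+/+ 1, at 41.7 CPM against 16.8 to 25.0 CPM elsewhere, and had heat shock elements 90 and 52 bases before a start site. Neither trait was particular to Dnaja4: the mitochondrial Hspe1 had both, and the constitutive Dnajb6 had the element. Gli3+/+ 1 was highest for 11.0% of all genes with at least 5 CPM, and 14.5% of the promoter set had the element. Hspa4l was at 45.5, 47.4 and 54.6 CPM in Gli3+/+ and at 80.4, 23.4 and 36.9 CPM in Gli3 Δ/Δ, the widest span of the list. Bag6, which guards newly made membrane proteins, was at 208, 211 and 208 CPM and at 227, 218 and 223 CPM, a span of 1.09 times.

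The 7 CCT subunits above 5 CPM, all but the testis-enriched Cct6b, shared 1 highest library. Cct2 was at 257, 225 and 347 CPM in Gli3+/+ and at 293, 265 and 299 CPM in Gli3 Δ/Δ. Cct3 was at 164, 150 and 368 CPM and at 236, 175 and 197 CPM. All 7 were highest in Gli3+/+ 3 and 6 of 7 were lowest in Gli3+/+ 2, the exception being Cct4 (lowest in Gli3 Δ/Δ 2 at 198.3 CPM, against 198.5 CPM in Gli3+/+ 2). Tcp1, the eighth subunit, whose symbol the rule does not cover, was at 192, 174 and 264 CPM and at 212.5, 193 and 215.5 CPM and had the same highest and lowest libraries. The summed CCT level was 1382, 1216 and 2141 CPM in Gli3+/+ and 1597, 1393 and 1549 CPM in Gli3 Δ/Δ. Among mitochondrial chaperones, Hspd1 (HSP60) was at 293, 187 and 395 CPM and at 325, 239 and 239 CPM, and the HSP70 of the matrix, Hspa9, was also highest in Gli3+/+ 3 (599 CPM, against 348 to 421 CPM in the other 5 libraries). Gli3+/+ 3 was the highest library for 31.3% and the lowest for 26.7% of all genes with at least 5 CPM, and had the lowest TMM factor (0.917, against 1.01 to 1.03). The part of this library's overall composition in the CCT pattern was not tested.

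**Figure D2:**
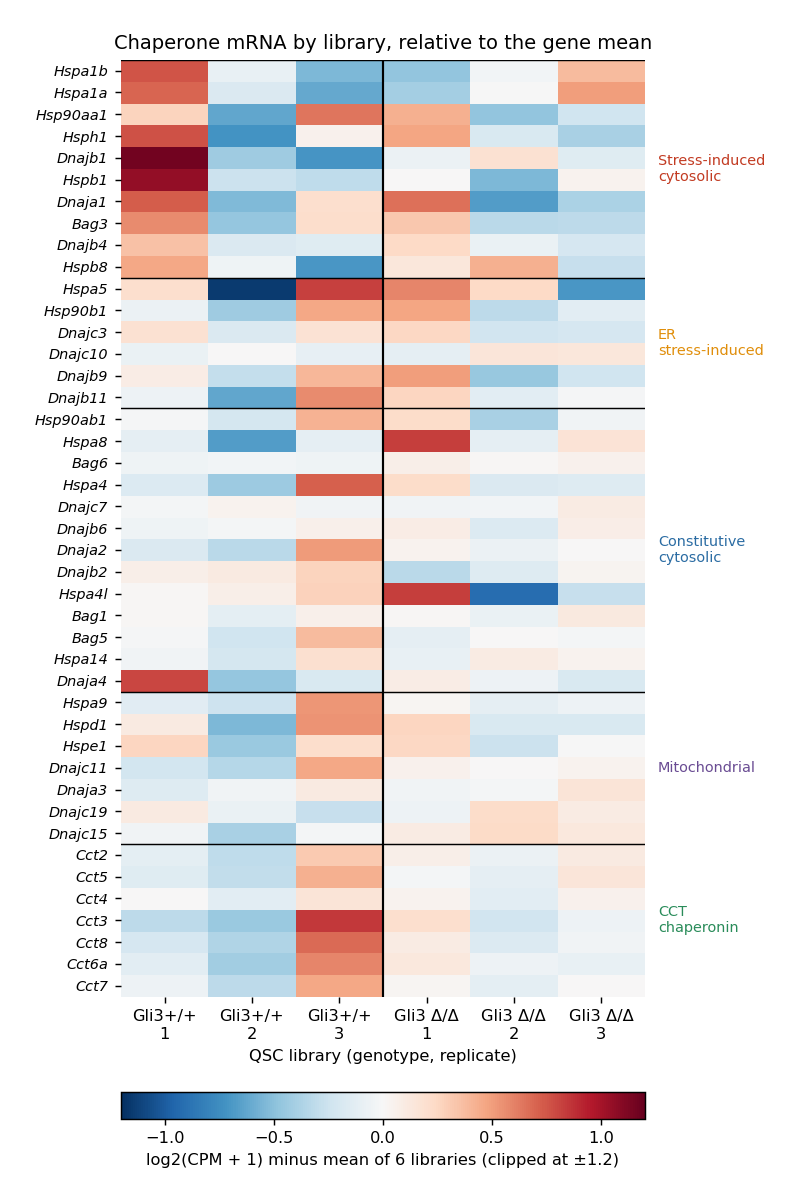
Heat map of log2(CPM + 1) in each QSC library minus the mean of the 6 libraries, for the list members at 5 CPM or more, with colours clipped at ±1.2. Red in the first column marks 9 of 10 stress-induced genes highest in Gli3+/+ 1, and red in the third column marks 7 of 7 CCT subunits highest in Gli3+/+ 3.

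The lists also differed in how far libraries of 1 genotype lay from each other, measured as the SD of log2(CPM + 1) within genotype, pooled over both genotypes. The median SD was 0.569 for the stress-induced genes and 0.428 for the ER genes, against 0.303 for mitochondrial, 0.287 for CCT and 0.224 for constitutive genes and 0.198 for members in no list. Over the 11168 genes with at least 5 CPM the median was 0.198 and the 90th percentile 0.404. Above that percentile were 9 of 10 stress-induced genes, all but Dnajb4 (SD 0.26), 4 of 6 ER genes, 4 of 13 constitutive genes, 2 of 7 CCT subunits and 1 of 7 mitochondrial genes. These values describe 6 libraries, and the members of a list are not independent replicates. The 5 members with the widest spread were Hspa5 (0.85), Dnajb1 (0.72), Dnaja1 (0.67), Hspa4l (0.63) and Hsph1 (0.61), and the narrowest was Bag6 (0.021). The median spread of constitutive, CCT and mitochondrial genes was lower without Gli3+/+ 3, at 0.12, 0.12 and 0.14. A median of all genes without this library is not given here, so the drop cannot be called particular to these lists. Among constitutive genes of wide spread, Hspa4l and Hspa8 were highest in Gli3 Δ/Δ 1 and Dnaja4 in Gli3+/+ 1. For the stress-induced list the median was 0.40 without Gli3+/+ 1 and 0.52 to 0.63 when any of the other libraries was left out.

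Between genotypes, edgeR called 0 of the 79 chaperone genes in QSCs (adjusted p under 0.05 by Benjamini-Hochberg over all genes, and a fold change of at least 1.2), where it called 0.351% of all genes. At an unadjusted p under 0.05 there were 4 of 79 members, 5.06% against 7.11% of all genes, and DESeq2 called 1 member, Hspb2, against 1.53% of all genes. The 3 libraries of each genotype did not overlap for 7 members, 8.86% against 13.0% of all genes. None of these shares of the members exceeded its background. The median log2 fold change was −0.02 over the members and −0.03 over all genes, with 37 members higher and 42 lower in Gli3 Δ/Δ. Of the stress-induced genes 9 of 10 had a negative log2 fold change, with a median of −0.19, but none had an unadjusted p under 0.05 and all 10 overlapped between genotypes. For Hspa1b the log2 fold change was −0.14 ± 0.33 (SE), for Hsph1 −0.15 ± 0.36, for Dnajb1 −0.26 ± 0.43 and for Hspb1 −0.46 ± 0.35 (adjusted p of 0.895 or above for every gene of the list by edgeR). Without Gli3+/+ 1 the fold changes of Dnajb1, Hspa1a, Hspa1b, Hsph1, Hspb1, Dnajb4, Dnaja1 and Bag3 were above 0, at 0.56 for Dnajb1 and 0.30 for Hspa1b. With standard errors of this size, a change of less than about the spread between libraries was not detectable for these genes.

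**Figure D3:**
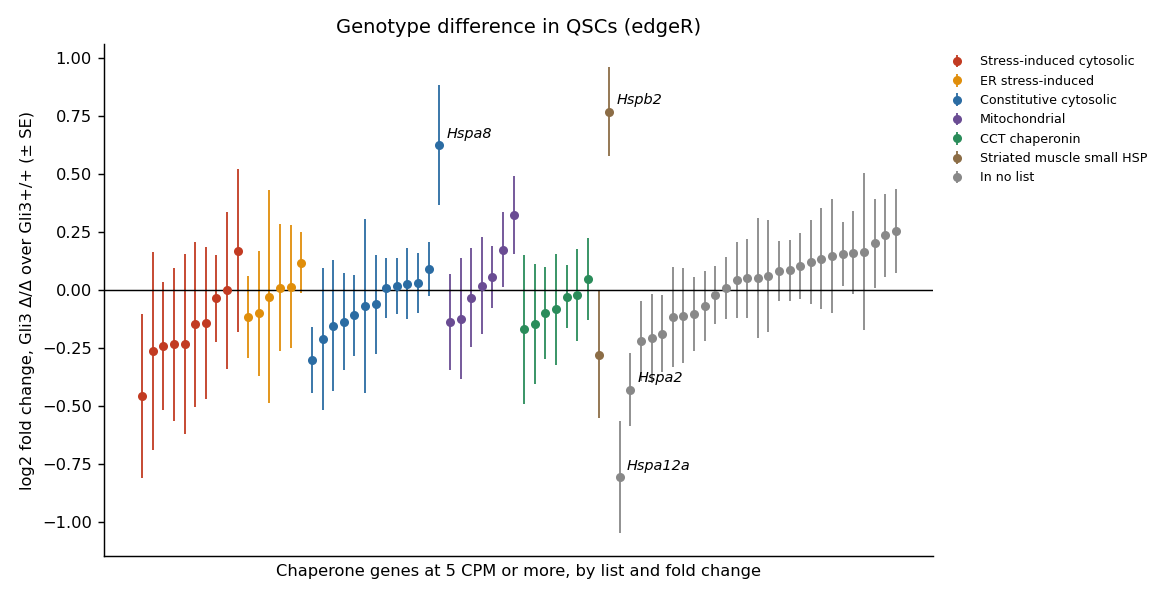
Log2 fold change of Gli3 Δ/Δ over Gli3+/+ in QSCs by edgeR (points) with its standard error (bars), for the 72 members at 5 CPM or more, ordered by list and value. The 4 genes named in the plot had an unadjusted p under 0.05, and none passed after adjustment over all genes.

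Hspb2, a small HSP found mainly in heart and skeletal muscle, had the lowest p of the members. It was at 5.86, 5.26 and 4.99 CPM in Gli3+/+ and at 8.91, 10.6 and 7.97 CPM in Gli3 Δ/Δ, from 215 to 708 counts a library. Every Gli3 Δ/Δ library exceeded every Gli3+/+ library, and the log2 fold change was 0.77 ± 0.19 (SE, adjusted p = 0.2535 by edgeR, 0.0166 by DESeq2). Hspb2 (chr9:50751078-50752354, minus strand) overlaps exons of Cryab, the αB-crystallin gene, on the opposite strand. Cryab, also a small HSP though not covered by the symbols, was at 118, 78.1 and 119 CPM and at 178, 141 and 162 CPM, without overlap (log2 fold change 0.61 ± 0.19, adjusted p = 0.427 by edgeR). The library kit keeps the strand, but whether the counting used it is not given in the sources used here, so reads of the 2 genes may not be fully separated. The other 3 small HSPs of striated muscle had no unadjusted p under 0.05. Hspb6 was at 5.34, 7.37 and 4.34 CPM and at 3.89, 4.13 and 6.06 CPM. Hspb7 had 21 to 69 counts a library, and Hspb3 had 0 counts in the 3 Gli3+/+ libraries and 1, 0 and 10 counts in Gli3 Δ/Δ.

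The summed myofiber markers were higher in Gli3 Δ/Δ, as Hspb2 was, mainly through Actn3. The 10 markers summed to 66.4, 87.25 and 128 CPM in Gli3+/+ and to 154, 179 and 196 CPM in Gli3 Δ/Δ, without overlap. Whether these sums stay apart without Actn3 was not tested. Libraries of the genotypes did not overlap for 13.0% of all genes, in either direction. Of the 10 markers, 3 did not overlap between genotypes and were higher in Gli3 Δ/Δ. These were Actn3 (15.4, 28.7 and 59.1 CPM and then 99.3, 117 and 115.5 CPM), Myh1 (8.75 to 10.8 and then 11.1 to 14.2 CPM) and Mylpf (2.53 to 2.74 and then 3.15 to 3.89 CPM). The other 7 overlapped, among them Acta1 (14.6 to 26.3 CPM) and Ckm (5.55 to 11.1 CPM). Of the 10 markers, 6 had a positive and 4 a negative fold change, and none was at 0 in all libraries. The 4 Schwann cell markers were in the opposite direction, at 87.2, 68.2 and 99.9 CPM in Gli3+/+ and at 32.4, 47.7 and 47.1 CPM in Gli3 Δ/Δ, and all 4 were lower in every Gli3 Δ/Δ library. The part of either cell type in the values of Hspb2 and of the next genes was not tested. In bulk RNA, fewer cells of a type and less RNA per cell cannot be told apart.

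Hspa12a, a distant HSP70 relative, had the largest negative fold change among members with at least 5 CPM. It was at 135, 189 and 92.8 CPM in Gli3+/+ and at 73.2, 91.2 and 73.6 CPM in Gli3 Δ/Δ. The genotypes did not overlap, though Gli3+/+ 3 and Gli3 Δ/Δ 2 nearly met (log2 fold change −0.81 ± 0.24, adjusted p = 0.4165 by edgeR). By DESeq2 its adjusted p was 0.1. With 1 library left out the log2 fold change ran from −1.03 (without Gli3+/+ 3) to −0.52 (without Gli3+/+ 2). Hspa2, an HSP70 best known from the testis, was at 15.7, 14.4 and 15.1 CPM and at 12.5, 11.0 and 10.2 CPM, without overlap (−0.43 ± 0.16, adjusted p = 0.573 by edgeR). Hspa8 had the only other p under 0.05 before adjustment (0.63 ± 0.26, adjusted p = 0.6655 by edgeR). With 1 library left out its log2 fold change ran from 0.31 (without Gli3 Δ/Δ 1) to 0.81 (without Gli3 Δ/Δ 2). Its highest value, 4235 CPM in Gli3 Δ/Δ 1, stood apart, and Gli3 Δ/Δ 2 at 2200 CPM lay below 2 of the 3 Gli3+/+ libraries. In Hspa8, 32.8% of runs of 75 bases also occur in other transcripts, most in a pseudogene.

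The remaining members named for a low p had no unadjusted p under 0.05. Dnajb2, a neuron-enriched J-domain protein, was at 55.1, 56.7 and 63.2 CPM in Gli3+/+ and at 41.6, 46.9 and 53.5 CPM in Gli3 Δ/Δ, without overlap (log2 fold change −0.30 ± 0.14). Dnajc15 and Bag2, a mitochondrial J-domain protein and an inhibitor of the ubiquitin ligase CHIP, were higher in every Gli3 Δ/Δ library, at 14.2 to 15.6 against 9.80 to 12.9 CPM and at 6.52 to 6.81 against 5.28 to 6.13 CPM. Bag6 was the seventh member without overlap, with a log2 fold change of only 0.09 ± 0.12. Hspa1l, the HSP70 gene next to Hspa1a and Hspa1b, was at 1.69, 1.08 and 0.812 CPM and at 1.95, 1.39 and 2.85 CPM, from 35 to 145 counts, with overlap. Its log2 fold change was 0.79 ± 0.39, and 0.48 (without Gli3 Δ/Δ 3) to 1.11 (without Gli3+/+ 1) with 1 library left out. Dnajc24, which serves diphthamide synthesis, lay between 7.38 and 10.9 CPM and Dnajc30, of the mitochondria, between 9.31 and 13.6 CPM, with overlap in both.

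The wider chaperone network outside the symbol rule was read from the same fit. Of 21 co-chaperones and chaperones of other names, among them Stip1, Fkbp4, Ptges3, Trap1 and the prefoldins, edgeR called 0, and 3 had an unadjusted p under 0.05 (14.3%, against 7.11% of all genes). The libraries did not overlap for 4 (19.0%, against 13.0% of all genes), which were Cryab, Vcp, Trap1 and Unc45a. The 3 with a low p were Cryab, Unc45b, a myosin chaperone, and Vcp, the ATPase that extracts proteins for degradation. Vcp was at 204, 186 and 254 CPM in Gli3+/+ and at 370, 363 and 362 CPM in Gli3 Δ/Δ (log2 fold change 0.77 ± 0.15, adjusted p = 0.101 by edgeR), with no overlap. Unc45b was at 8.79, 12.5 and 12.9 CPM and at 4.98, 9.07 and 5.74 CPM. Of 5 further genes (Hsf1, Hsf2, Hsf4, Hsbp1 and Hspbp1), 0 were called and 0 had an unadjusted p under 0.05. The libraries did not overlap for 1 of them, Hsbp1 (20.0%, against 13.0% of all genes). The median log2 fold change was −0.02 for the 21 and −0.08 for the 5, against −0.03 over all genes.

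For ASCs the deposited comparison tables gave a single mean per gene over all 12 libraries, both genotypes included, which was the same in 4 tables. It was set beside the QSC mean as a log2 ratio, centred on the median of 12457 protein-coding genes with at least 1 CPM in QSCs. A position above 0 means that the mean over QSCs and ASCs lies higher relative to QSCs than for the median gene. The 2 means were normalized separately, the ratio has no replicate and no genotype, and so it is a description only. The QSC libraries are themselves part of the mean over 12 libraries. The ratio is therefore limited on its lower side, and distances below and above 0 cannot be compared. Hspa1a was at −0.95 (percentile 1.89 of the genes), Hspa1b at −0.95 (1.95), Dnajb1 at −0.87 (3.31) and Hspb1 at −0.78 (5.84), where the 1st percentile of genes was −1.01. For these 4 genes the QSC libraries stood far above the pooled mean, compared with the median gene. Bag3 (−0.43), Hsph1 (−0.40) and Dnajb4 (−0.35) were also below the median gene, and Dnaja1 was at 0.03 (percentile 51.7).

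Other members of the stress-induced list stood on the opposite side, with Hsp90aa1 at 0.68 (percentile 82.6) and Hspb8 at 2.35 (percentile 97.5). All 7 CCT subunits at 1 CPM or more were above the median gene, at percentiles 77.2 to 89.2, and so were all 7 mitochondrial chaperones, at percentiles 61.5 to 93.6 with Hspd1 at the top (1.39). Constitutive genes were above in 9 of 13 cases and ER genes in 3 of 6. Hspa8 was near the median gene at 0.02 (percentile 51.6), as was Bag6 at 0.04. Among members in no list the highest were Dnajc9, a histone-binding J-domain protein (1.59, percentile 94.8), and Dnajc2, a ribosome-bound one (1.27, percentile 92.7). The immediate-early genes were below the median gene in 16 of 18 cases, with a median percentile of 4.25, beside the stress-induced genes that were lowest on this scale, and what the sorting of QSCs and ASCs contributed to either was not tested.

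**Figure D4:**
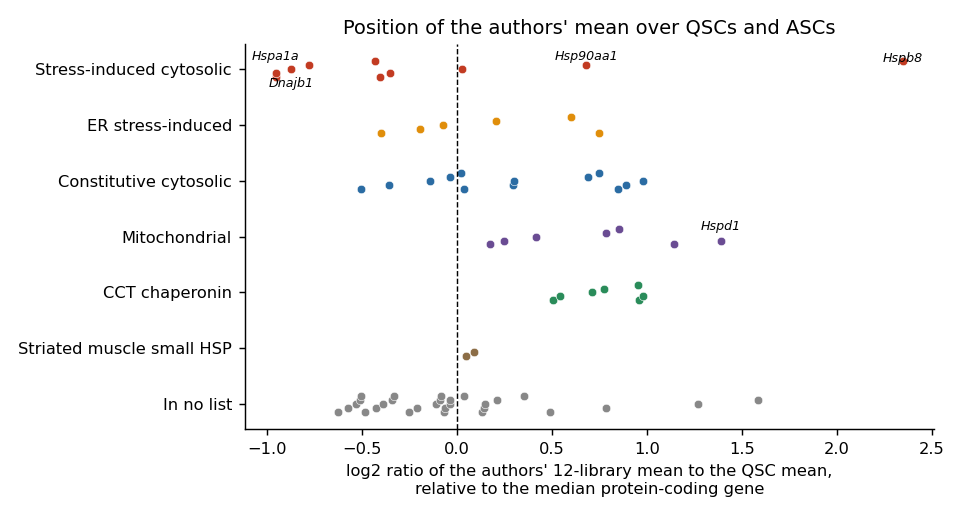
Log2 ratio of the authors' mean over 12 QSC and ASC libraries to the mean of the 6 QSC libraries, relative to the median protein-coding gene (dashed line), for members at 1 CPM or more by list. Each point is 1 gene, offset in height only for legibility. The stress-induced list is split from −0.95 (Hspa1a) to 2.35 (Hspb8), while CCT and mitochondrial points all lie to the right of the line.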

How the data were processed

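RNA of 12 sorted satellite cell samples was sequenced with a strand-keeping polyA kit. The authors ran salmon on the transcripts of GENCODE vM19 (GRCm38), summed these to genes with tximport and deposited estimated counts without normalization, leaving out genes with few reads. Of the authors' 4 DESeq2 tables, only the mean signal over 12 libraries (counts divided by size factors) was used here. Their fold changes and p-values were not used.

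Of the QSC values 49.2% were not whole, and all were rounded. edgeR 4.0.16 (R 4.3.3) was run on the 6 QSC libraries and all 25093 genes, with TMM, the quasi-likelihood test and Benjamini-Hochberg adjustment. The 6 count columns of ASC libraries could not be matched to labels and were not used, so the planned fit over 12 libraries was not run. Each QSC replicate is a pool of mice, and p-values measure the spread between these libraries. Replicate numbers did not pair QSC libraries (correlations of deviations −0.276, −0.02 and −0.064). Libraries were scaled to CPM, and spread was taken on log2(CPM + 1). Levels per kilobase used union exons of GENCODE vM21, in which 96.3% of gene identifiers carry the same version. Exact tests of 3 against 3 cannot go below p = 0.1, and no p over a list is given. DESeq2 1.42.0, other scalings and filters, a replicate block and leaving out each library were alternatives. Scripts were tested on simulated data.

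The members and lists were chosen with earlier results of these data known. Genes named with values are the stress-induced list, the 10 other members with the lowest p at 1 CPM or more, the highest member of each family per kilobase and the 5 with the widest spread. Cct3, Bag6, Hspb6, the members at the lower end of a list and genes outside the symbol rule were added after their values were seen.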

Additional observations from a re-analysis of the deposited data

How the results depend on the processing

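In QSCs edgeR called 88 genes and 0 chaperones between genotypes. DESeq2 called 384 genes and 1 chaperone, Hspb2 (log2 fold change 0.78). With DESeq2 size factors, filterByExpr, a replicate block or no minimum fold there were 90, 85, 79 and 88 genes and 0 chaperones each. Leaving out 1 library gave 58 (without Gli3 Δ/Δ 3) to 103 genes (without Gli3+/+ 1) and 0 chaperones. The replicate numbers did not pair the libraries, and with the replicate block the count of chaperones called stayed at 0.

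The log2 ratio of the summed stress-induced genes was −0.11, and −0.24 without Hspa1a and Hspa1b, an alternative chosen after seeing the data. With 1 library left out it ran from −0.33 to 0.32, with reversal without Gli3+/+ 1 (0.32) or Gli3 Δ/Δ 1 (0.02). For the constitutive sum it was 0.19, with a range of −0.02 to 0.34 and −0.01 as a mean of log2 values. The median spread ran from 0.12 to 0.33 for CCT, 0.12 to 0.26 for constitutive and 0.14 to 0.35 for mitochondrial genes, each lowest without Gli3+/+ 3.

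Of 260 values of the 26 named genes under alternatives, 227 kept direction and side and 32, in 15 genes, reversed. The log2 fold change of Hspa1a was 0.00 with DESeq2, 0.00 with its size factors and 0.06 with the replicate block, and that of Hspa5 was 0.11 with the replicate block. The other reversals came from leaving out 1 library, with these ranges of log2 fold change: Bag3 −0.49 to 0.02, Cct2 −0.07 to 0.25, Dnaja1 −0.74 to 0.11, Dnajb1 −0.58 to 0.56, Dnajb4 −0.17 to 0.16, Hsp90aa1 −0.54 to 0.06, Hsp90ab1 −0.29 to 0.06, Hspa1a −0.27 to 0.45, Hspa1b −0.39 to 0.30, Hspa4l −0.71 to 0.26, Hspa5 −0.40 to 0.46, Hspb1 −0.69 to 0.14, Hspb8 −0.11 to 0.55, Hspd1 −0.35 to 0.16 and Hsph1 −0.44 to 0.29. The cause of these reversals was not tested. With 3 libraries a genotype and the spread of stress-induced genes, small differences were not detectable, and genes under 1 CPM rest on few counts. The fit over 12 libraries was not run, since ASC columns could not be matched to samples.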
